A study of Mus musculus with 15 samples.

Results

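Chromosome 4 was followed as a dosage profile in 13 clones of mouse pancreatic tumour cells, meaning how many ATAC-seq reads its peaks held in 1 clone relative to the other clones. The members were all peaks of the merged count table on chromosome 4 with a mean raw count of 20 or more per library. They numbered 2055, out of 3684 chromosome 4 peaks of any count and 67945 peaks in all. Of the members, 58 lay in a focal stretch around the tumour suppressor genes Cdkn2a and Cdkn2b, from 88515282 to 89530562, and were kept apart, which left 1997 for the profile. The chromosome 4 peaks just inside and just outside the count threshold had mean counts of 20 and 19.9.

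Each library held 50000 tumour cells sorted from a tumour that had grown for 3 weeks under the skin of C57BL/6 mice, with no treatment in either group. The T cell high group had 6 clones, 2838c3, 6421c2, 6499c4, 6555c3, 6620c1 and 7160c2, and the T cell low group had 7, which were 6422c1, 6556c3, 2699c4 and 6694c2 as well as 6419c1, 6419c5 and 6499c3. The labels name the T cell phenotype of a clone and give no genotype, host age or batch for either group, and 2 clones labelled T cell intermediate had no values analysed here. Each clone gave 1 library, so a clone's profile has no replicate check, and the group tests measure the spread between clones. By their shared name stems, 6499c4 (T cell high) and 6499c3 (T cell low) came from 1 parental tumour, as did the T cell low clones 6419c1 and 6419c5.

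In ATAC-seq a transposase cuts accessible DNA, and the reads over a region rise with both its accessibility and the number of DNA copies that carry it. A change in copy number shifts all peaks of a long stretch together, whereas regulation of a gene usually shifts the peaks around that gene. Mouse chromosome 4 carries the cell cycle inhibitors Cdkn2a, Cdkn2b and Cdkn2c, the growth regulators Jun, Mycl, Jak1 and Mtor, and the chromatin regulators Arid1a and Chd7, and tumour cells often gain or lose parts of chromosomes. In these bulk libraries more copies of a region and more open chromatin along it cannot be told apart, so "level" below means reads in peaks and not copies.

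Total counts in peaks were between 968296 and 5936823 in T cell high libraries and between 1030616 and 7369228 in T cell low libraries. All 6 tumour epithelium markers had a peak at a gene end, with summed levels of 84.4 to 217 CPM (reads relative to the library's total, scaled by TMM) in T cell high and 105 to 187 CPM in T cell low clones. Of 12 leukocyte markers 4 had such a peak, with sums of 24.8 to 68.7 CPM in T cell high and 47.0 to 87.4 CPM in T cell low clones. These were Ptprc, Coro1a, Cd79a and Cd53, with Cd53 at 10.9 to 42.8 CPM in T cell high and 22.4 to 58.8 CPM in T cell low clones. Cd3e, Cd3d, Cd8a and Lck of T cells had none. Of 6 fibroblast markers Col1a1 alone had one, at 19.9 to 34.4 CPM in T cell high and 16.8 to 37.9 CPM in T cell low clones, and 0 of 5 endothelial markers had one. The part of other cells in the results was not tested.

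The sequences of 3 promoters are shown because their peaks mark separate regions of the profile. Klf4 encodes a zinc finger transcription factor, Jun a subunit of the AP-1 transcription factor and Mtor the kinase at the centre of the mTOR growth pathway. Each sequence is the 250 bases before the gene's start from RefSeq (GRCm38.p6), written 5′ to 3′ on the gene's strand. Capitals mark GC boxes, GGGCGG on either strand. The Klf4 promoter lies at chr4:55532476-55532725 (minus strand), that of Jun at chr4:95052223-95052472 (minus strand) and that of Mtor at chr4:148448332-148448581 (plus strand).
Klf4: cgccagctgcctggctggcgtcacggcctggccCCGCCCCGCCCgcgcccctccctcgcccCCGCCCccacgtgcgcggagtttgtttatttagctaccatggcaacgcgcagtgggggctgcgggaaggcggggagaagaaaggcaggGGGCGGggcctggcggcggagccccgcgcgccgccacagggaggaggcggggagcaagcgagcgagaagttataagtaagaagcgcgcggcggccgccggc
Jun: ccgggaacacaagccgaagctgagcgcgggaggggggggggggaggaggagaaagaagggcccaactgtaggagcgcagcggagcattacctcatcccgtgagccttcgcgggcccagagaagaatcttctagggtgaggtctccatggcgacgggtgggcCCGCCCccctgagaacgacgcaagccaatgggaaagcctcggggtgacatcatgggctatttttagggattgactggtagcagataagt
Mtor: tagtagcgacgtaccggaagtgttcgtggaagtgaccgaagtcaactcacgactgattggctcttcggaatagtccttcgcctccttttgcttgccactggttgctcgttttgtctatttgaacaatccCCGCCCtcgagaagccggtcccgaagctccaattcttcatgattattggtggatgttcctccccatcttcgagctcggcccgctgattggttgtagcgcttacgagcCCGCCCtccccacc
The Klf4 promoter held 4 GC boxes, 2 of which share 1 base, that of Mtor held 2 and that of Jun held 1. A GC box was present in 37.1% of 2053 chromosome 4 promoters of this length and in 32.7% of 32851 promoters of all chromosomes. The AP-1 motif TGANTCA was in 0 of the 3, against 6.72% of chromosome 4 promoters. This pattern was the only form searched, and it does not match the TGACATCA in the Jun sequence. Each of the 3 promoters lay under a member peak, at 55532088 to 55533478 for Klf4, 95051502 to 95053525 for Jun and 148448191 to 148449253 for Mtor.

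The level of the whole chromosome differed more between clones than between groups. The log2 ratio of a peak is its log2 CPM in 1 clone minus the median of the other 12 libraries, and a clone's level is the median over the 1997 members. In T cell high clones it was -0.09 in 2838c3, 0.26 in 6421c2, -0.00 in 6499c4, 0.28 in 6555c3, -0.05 in 6620c1 and 0.05 in 7160c2. In T cell low clones it was -0.11 in 2699c4, 0.07 in 6419c1, -0.10 in 6419c5, -0.44 in 6422c1, 0.10 in 6499c3, 0.14 in 6556c3 and 0.02 in 6694c2. The groups overlapped between -0.09 and 0.14: the T cell high clones 6421c2 and 6555c3 lay above all T cell low clones, and the T cell low clone 6422c1 stood below all others. T cell high clones averaged 0.08 ± 0.16 (SD, n = 6), and T cell low clones averaged -0.05 ± 0.20 (SD, n = 7). The difference of 0.12 did not pass the exact two-sided permutation test (p = 0.256, smallest p possible 0.000583). Without 6422c1 it was 0.06, without 6555c3 0.07 and without 6421c2 0.08. It was also smaller in peaks at gene ends (0.05, exact p = 0.699), meaning within 1 kb of either end of a protein-coding gene record, than in the other peaks (0.17, exact p = 0.111). In some clones the sign of the level depended on the kind of peak. Gene-end and other peaks were at 0.30 and -0.08 in 6499c3, -0.22 and 0.07 in 6620c1, and 0.07 and -0.24 in 2699c4. They also differed in sign, by less, in 6499c4, 6419c1 and 6694c2.

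**Figure D1:**
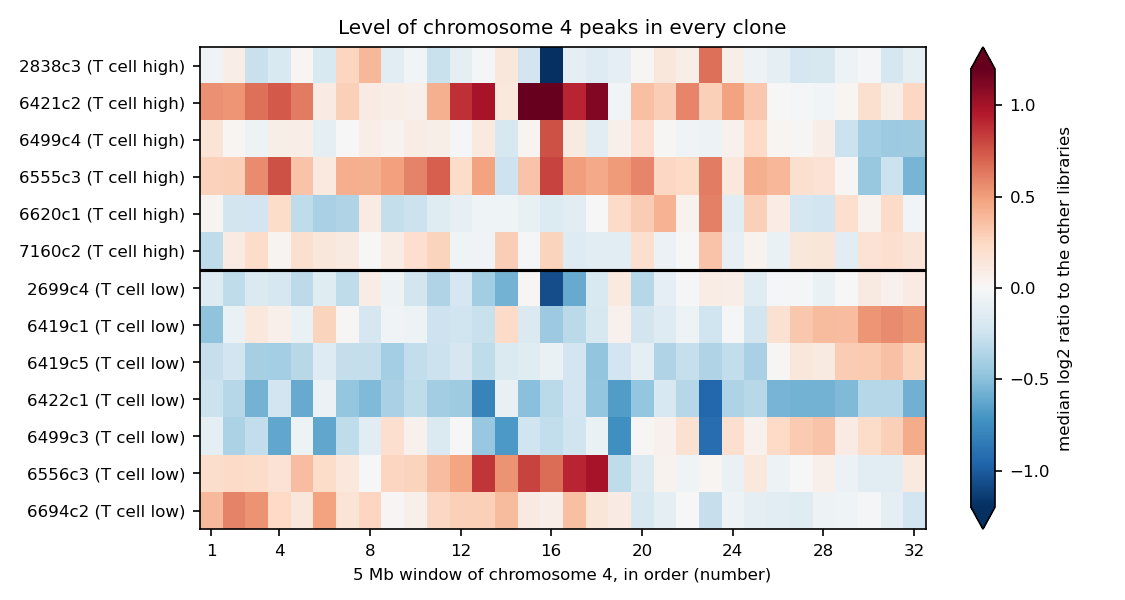
Median log2 ratio of chromosome 4 peaks to the other libraries (colour, clipped at 1.2 in size) in the 32 windows of 5 Mb, in order along the chromosome (x axis), for each clone (rows, T cell high above the line and T cell low below). 6421c2 and 6556c3 share a red block at windows 12 to 18 (window 14 is at 0.13 in 6421c2), 6422c1 is blue along its length, and 2838c3 and 2699c4 are darkest blue at window 16.

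The share of autosomal peak reads that fell on chromosome 4 also varied more within the groups than between them. It was 4.24% to 5.68% in T cell high clones (median 5.01%), highest in 6421c2, and 3.47% to 5.80% in T cell low clones (median 4.67%), lowest in 6422c1 and highest in 6556c3. In 6422c1 the level of chromosome 4 ranked last of 19 autosomes, and in 6555c3 it ranked 2 from the top. Of the 1997 members, 17.4% lay above 0 in 6422c1, against 67.7% in both 6421c2 and 6555c3. Of the 73 peaks at ends of listed genes outside the focal stretch, 69 lay below 0 in 6422c1, with a median log2 ratio of -0.50.

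The parts before 80 Mb and from 80 Mb on had the same sign in 8 of 13 clones. Before 80 Mb the level was -0.20 to 0.48 in T cell high clones (median 0.05) and -0.41 to 0.35 in T cell low clones (median -0.10). From 80 Mb on it was -0.09 to 0.19 in T cell high clones (median 0.04) and -0.45 to 0.19 in T cell low clones (median -0.01). The later part was lower than the earlier one by 0.30 in 6555c3, 0.35 in 6556c3 and 0.33 in 6694c2, and higher by 0.24 in 6620c1, 0.27 in 6419c1, 0.27 in 6419c5 and 0.27 in 6499c3. Steps of both signs thus stood in both groups. The later minus the earlier part averaged -0.06 ± 0.18 for T cell high clones (SD, n = 6) and 0.04 ± 0.28 for T cell low clones (SD, n = 7). This gap of -0.10 did not pass the exact two-sided permutation test (p = 0.462).

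**Figure D2:**
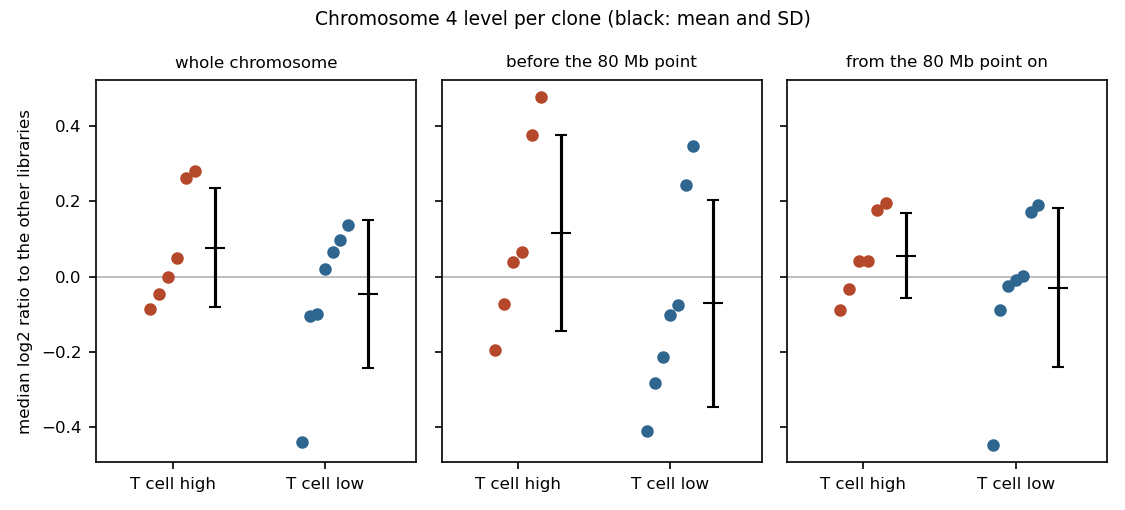
Median log2 ratio of chromosome 4 peaks per clone (y axis, points) for the whole chromosome, for peaks before 80 Mb and for peaks from 80 Mb on, with the mean and SD of each group in black. T cell high clones (n = 6, left) and T cell low clones (n = 7, right) overlap in all 3 panels, and 1 T cell low clone, 6422c1, lies at -0.44 for the whole chromosome.

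Many windows of chromosome 4 were shifted in single clones. A 5 Mb window was called raised or lowered in a clone where its median log2 ratio was past 0.4 in size, and all 32 windows held at least 10 members. Of the 416 values of 32 windows in 13 clones, 47 (11.3%) were raised, against 6.01% of 6253 values over all autosomes, and 38 (9.13%) were lowered, against 5.89%. This share of shifted values, 20.4%, ranked 1 of 19 autosomes, with chromosome 16 next at 20.4%. The median over clones of the range between the highest and lowest window, 1.18, also ranked 1 of 19, whereas the SD of the clones' whole-chromosome levels, 0.18, ranked 10. The windows here held a median of 55.5 members. Among windows of 30 or more members the shifted share was 17.8% on chromosome 4 and 10.3% on all autosomes, and chromosome 4 again ranked 1.

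The shifted windows were unevenly spread over the clones. In T cell high clones 15 windows were raised in 6555c3, 14 in 6421c2, 2 in 6620c1, 1 each in 2838c3 and 6499c4 and 0 in 7160c2. In T cell low clones 7 were raised in 6556c3, 3 each in 6419c1 and 6694c2, 1 in 6499c3 and 0 in 2699c4, 6419c5 and 6422c1. The lowered windows were mostly those of 6422c1, with 17, and 6499c3, with 6. In 6499c3 low levels were not shared by both kinds of peak everywhere. From 3.6 to 32.5 Mb its gene-end peaks had a median of 0.04 and its other peaks -0.59. The clone 7160c2 had no shifted window, and its 32 windows lay between -0.30 and 0.34.

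The profiles were also cut into stretches of 1 level by a piecewise-constant fit over the members in order, a description with no test. The gene-end peaks counted below are among the members that set the stretches, so their signs are no separate check. The clone 6421c2 (T cell high) had 7 stretches and 6556c3 (T cell low) had 3, and both had their highest level over the same part of the chromosome. In 6421c2 the stretch from 53.5 to 88.2 Mb (323 members) had a median log2 ratio of 0.96, 1.94-fold the other libraries, with 88.2% of its members above 0. In 6556c3 the stretch from 56.8 to 92.6 Mb (270 members) had a median of 0.83, 1.77-fold, with 87.0% above 0. The focal members were left out of the fit, so past 88351502 this stretch rests on 1 member, which starts at 92554944. The focal members from the Mtap gene on were at 0.28 in 6556c3. Over the stretch of 6556c3 the other T cell high clones lay between -0.13 in 2838c3 and 0.44 in 6555c3, and the other T cell low clones between -0.45 in 6422c1 and 0.26 in 6694c2. Both kinds of peak carried the level: gene-end peaks had medians of 1.10 in 6421c2 and 0.97 in 6556c3, and the other peaks 0.92 and 0.77.

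Genes in this stretch include Nfib, a developmental transcription factor, Mllt3, a subunit of the super elongation complex, Rps6, a ribosomal protein, and Tlr4, a receptor for bacterial lipopolysaccharide. At the gene-end peak of Nfib, 6421c2 had 142 CPM and 6556c3 had 184.8 CPM, and the other clones had 39.9 to 87.7 CPM in T cell high and 52.2 to 104 CPM in T cell low. These were the highest 2 levels of 13. At Rps6 they were likewise highest, with 70.5 CPM in 6421c2 and 79.3 CPM in 6556c3. At Mllt3, 6556c3 was highest (107 CPM) and 6421c2 ranked 3 (64.0 CPM), and at Tlr4, 6421c2 was highest (156 CPM) and 6556c3 ranked 4 (84.9 CPM). Klf4 lies inside the stretch of 6421c2 and outside that of 6556c3. Its promoter peak had 61.3 to 87.9 CPM in T cell high clones (median 75.5 CPM) and 50.6 to 121 CPM in T cell low clones (median 68.2 CPM). The groups overlapped, and the highest level at Klf4 was in 6499c3, where the window of 55 to 60 Mb was at -0.01.

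Further blocks were raised in 6421c2. From 3.6 to 25.3 Mb (186 members) the median was 0.65, with 78.0% of members above 0. Of the 9 listed genes there 7 had a member peak at a gene end, and 6 of these lay above 0, among them Ccne2, which encodes cyclin E2, at 118 CPM, against 47.1 to 106 CPM in the other clones. From 106.3 to 123.0 Mb (266 members) it was 0.57, with 87.6% of members above 0. Of the 17 listed genes there 13 had a member peak at a gene end, and all 13 lay above 0. Among them, Cdkn2c, the inhibitor p18, had 77.6 CPM in 6421c2, against 25.3 to 64.3 CPM in the others, and Mycl, a MYC family transcription factor, had 50.6 CPM, against 16.4 to 48.6 CPM. In 6555c3 the level was high over a longer part, 0.50 from 3.6 to 99.9 Mb (888 members), with 79.96% of members above 0. Of the 34 listed genes there 21 had a member peak at a gene end, and all 21 lay above 0, with a median of 0.41. At the Jun promoter 6555c3 had 181 CPM, and the other T cell high clones had 129.5 to 151 CPM. T cell low clones had 102 to 185 CPM at Jun (median 114 CPM), so the groups overlapped.

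The far end of the chromosome was lower than the rest in 6499c4 and 6555c3, T cell high clones of different parental tumours. Over 141.7 to 156.2 Mb the T cell low clone 6422c1, low along its length, had a like level of -0.43. The level fell to -0.44 from 141.7 to 156.2 Mb (261 members) in 6499c4, against 0.05 before that point, and to -0.41 from 141.9 to 156.2 Mb (253 members) in 6555c3, against 0.24 in the stretch before. From the 5 Mb before 141.7 Mb (151 members) to the 5 Mb after it (62 members) the level changed by -0.57 in 6499c4 and by -0.47 in 6555c3. The same step was upward in other clones, 0.53 in 6620c1 and 0.37 in 6419c5. Past the step 87.4% of members lay below 0 in 6499c4 and 78.3% in 6555c3. Of the 33 listed genes there in 6499c4, 19 had a member peak at a gene end, and all 19 lay below 0 (median -0.63), among them Mtor, Casp9, the initiator of the caspase cascade, and Eno1, a glycolytic enzyme. In 6555c3, 18 of 32 had such a peak, and 16 of the 18 lay below 0.

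The same end was raised in the T cell low clone 6419c1, with a median of 0.41 from 127.0 to 156.2 Mb (679 members). Its sister clone 6419c5 stepped up at 127.3 Mb, to 0.20 after that point and -0.29 before it. Past the step in 6419c1, 82.6% of members lay above 0. Of the 60 listed genes there 36 had a member peak at a gene end, and 31 of these peaks lay above 0, with a median of 0.41. They include Errfi1, a feedback inhibitor of the EGF receptor, at 56.2 CPM, the highest of 13 clones. At the Mtor promoter the T cell high clones had 50.3 (2838c3), 53.4 (6421c2), 28.7 (6499c4), 43.4 (6555c3), 48.8 (6620c1) and 41.9 CPM (7160c2). The T cell low clones had 60.2 (2699c4), 78.2 (6419c1), 47.8 (6419c5), 31.3 (6422c1), 60.0 (6499c3), 35.5 (6556c3) and 35.2 CPM (6694c2). The highest clone was 6419c1 and the lowest 6499c4, and the groups overlapped, with a log2 fold change of -0.18 (SE 0.23), T cell high over T cell low (edgeR, adjusted p = 0.915), and 0.05 with offsets for the window level of each clone.

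**Figure D3:**
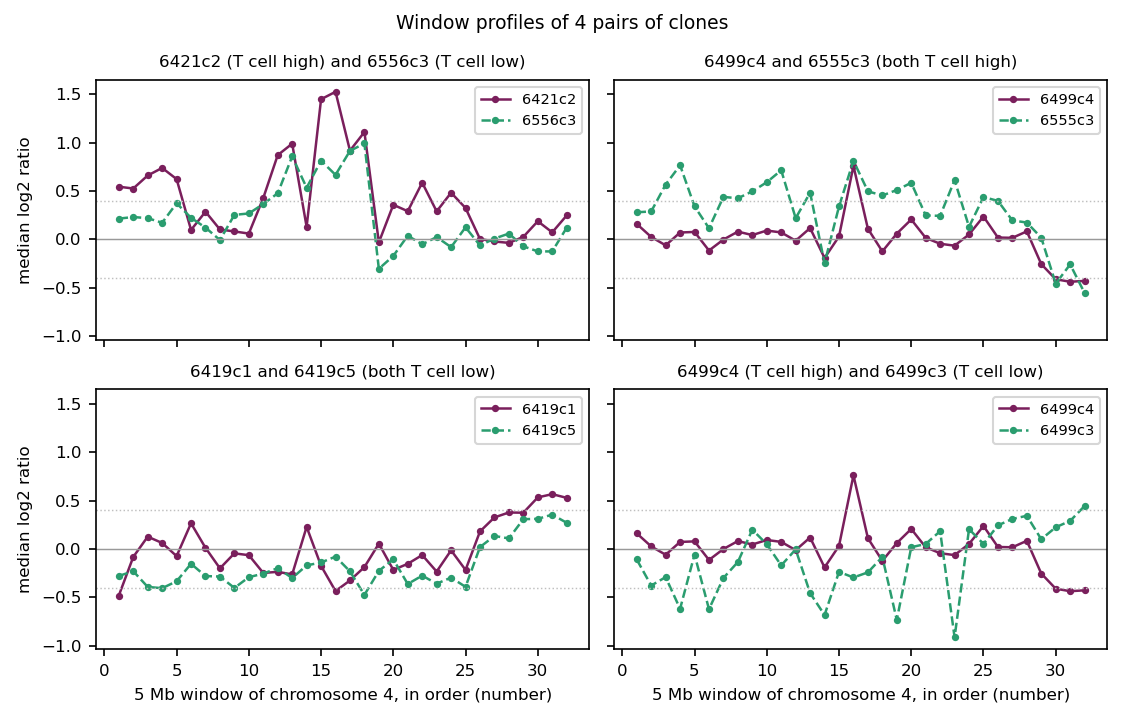
Median log2 ratio (y axis) in the 32 windows of 5 Mb in order along the chromosome (x axis) for 4 pairs of clones, with dotted lines at 0.4 in size. 6421c2 and 6556c3 are both high at windows 12 to 18 except window 14, where 6421c2 is at 0.13, 6499c4 and 6555c3 fall below -0.4 at window 30, 6419c1 and 6419c5 rise from window 26 on, and 6499c4 and 6499c3 part at the far end.

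Clones of 1 parental tumour were not alike in both cases. Across the 32 windows the profiles of 6419c1 and 6419c5 had a Pearson r of 0.73, which ranked 3 of 78 pairs, and 6419c1 was higher by a median of 0.21. The profiles of 6499c4 (T cell high) and 6499c3 (T cell low) had an r of -0.22, which ranked 52. The pairs in ranks 1 and 2 were of different parents, 6499c4 with 6555c3 (r = 0.77) and 6421c2 with 6556c3 (r = 0.76). The 76 pairs of different parents ran from -0.74 to 0.77 with a median of -0.12. These values only describe the windows, since every profile is set against the other libraries and neighbouring windows are not independent.

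A short stretch at Ptprd, a receptor tyrosine phosphatase gene with roles at synapses, lay in the lowest 5 Mb window of 2 clones. In 2838c3 (T cell high) 12 members from 75.6 to 78.2 Mb, 9 of them inside the gene record of Ptprd, had a median log2 ratio of -2.11, 0.232-fold the other libraries, and all 12 lay below 0. In 2699c4 (T cell low) the same 12 had a median of -1.46, and 9 of them lay in a longer stretch from 76.0 to 83.3 Mb (56 members) at -0.66. With a lower penalty on cuts 2699c4 had a further low stretch from 119.8 to 120.3 Mb (10 members) at -1.71. At that penalty 6499c3 had 13 stretches in place of 6, with a low one from 119.7 to 120.4 Mb (13 members) at -0.98. The clone 6422c1 had 3 in place of 1, with a low one from 61.9 to 62.9 Mb (23 members) at -1.42. The cuts in these clones thus depended on the penalty. The summed level of the 12 members at and beside Ptprd in T cell high clones was 67.2 CPM in 2838c3, 502 in 6421c2, 226 in 6499c4, 353 in 6555c3, 208 in 6620c1 and 178 in 7160c2. In T cell low clones it was 69.6 CPM in 2699c4, 134 in 6419c1, 189 in 6419c5, 141 in 6422c1, 153.5 in 6499c3, 247 in 6556c3 and 169 in 6694c2. The raw counts behind the lowest 2 sums were 254 in 2838c3 and 200 in 2699c4. The lowest clone of T cell high stood far below its others, and that of T cell low was followed by 6419c1 at 134 CPM. The window of 75 to 80 Mb, with 15 members, averaged 0.20 ± 1.22 for T cell high clones (SD, n = 6) and -0.21 ± 0.53 for T cell low clones (SD, n = 7), a difference that did not pass the exact permutation test (p = 0.442).

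**Figure D4:**
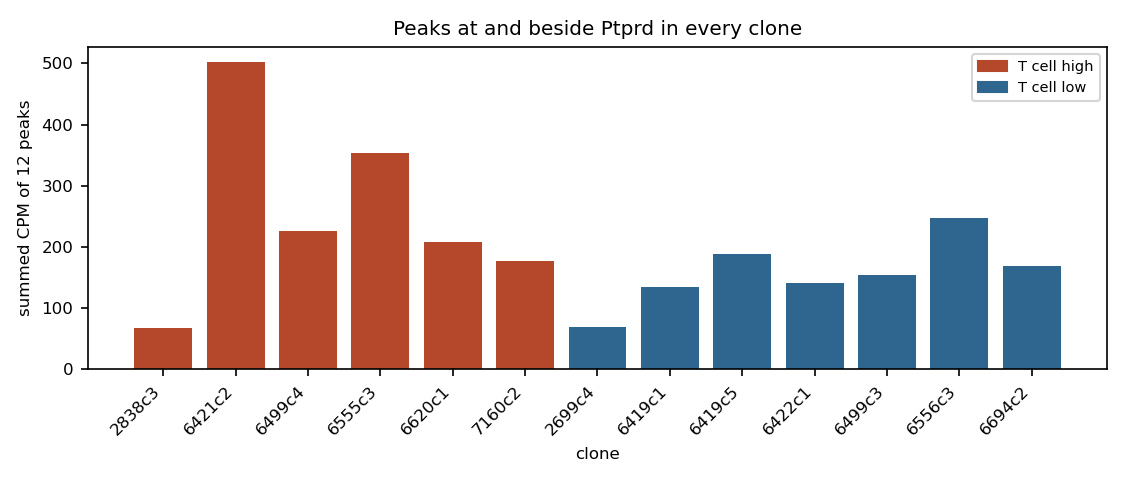
Summed CPM of 12 member peaks at and beside Ptprd (y axis, bars) in each clone (x axis), T cell high clones left of T cell low clones. 2838c3 and 2699c4 are lowest at 67.2 and 69.6 CPM, and 6421c2 is highest at 502 CPM.

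A second short stretch stood out in 6499c3 (T cell low), where 11 members from 63.8 to 64.3 Mb had a median of -2.33, 0.199-fold the other libraries. The other T cell low clones had -0.75 to 0.43 over the same peaks, and the T cell high clones -0.10 to 0.60. None of these 11 peaks lay at a gene end, and the 1 listed gene there is Tnc, which encodes the matrix protein tenascin C. Around the focal stretch the levels of the flanks differed by clone. In 6556c3 (T cell low) the 36 members in the 5 Mb before it were at 0.99, the 29 focal members from the Mtap gene on at 0.28 and the 10 members in the 5 Mb after it at -0.30. In 6694c2 (T cell low) the same blocks were at 0.15, -3.88 and 0.10, and the 29 focal members before Mtap were at -0.22. The low level thus lay in the focal members from Mtap on, and neither flank block shared it. The first member after the focal stretch starts at 92554944, so where the low level ends on that side cannot be told.

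Comparing the groups by window, the T cell high clones were higher by an unadjusted exact p under 0.05 in 5 of 32 windows (15.6%), against 3.74% of 481 autosomal windows in that direction and 6.65% in either. Chromosomes 3 (19.4%) and 6 (17.9%) had a larger share of windows under 0.05 in either direction. None passed with Benjamini-Hochberg adjustment over all 481 windows (adjusted p = 0.619 for each of the 5), where 0% of autosomal windows passed. The groups were fully apart in 0 of 32 windows and in 0% of all autosomal windows. The 5 windows were 35 to 40, 95 to 100, 100 to 105, 110 to 115 and 120 to 125 Mb. With Benjamini-Hochberg adjustment of the exact tests over the 32 windows of chromosome 4 alone, none passed either. The adjusted p was then 0.0559 at 95 to 100 and at 110 to 115 Mb. It was 0.0746 at 100 to 105 and at 120 to 125 Mb, and 0.228 at 35 to 40 Mb. At 95 to 100 Mb, the window of Jun and of the nuclear factor gene Nfia, T cell high clones lay at 0.01 to 0.59 (median 0.26) and T cell low clones at -0.46 to 0.02 (median -0.19), a difference of 0.49 (exact p = 0.00175). At 100 to 105 Mb, the window of Jak1, a kinase of cytokine receptors, the difference was 0.29 (exact p = 0.00758). At 120 to 125 Mb, with Mycl, Cdca8 and Cap1, it was 0.36 (exact p = 0.00932). At 35 to 40 Mb it was 0.30 (exact p = 0.0355), and with any 1 library left out in turn its p was under 0.05 in 1 of 13 cases. With clones of 1 parent averaged it was 0.28 (exact p = 0.0649). The other 4 windows kept a p under 0.05 in 13 of 13 cases. With gene-end peaks alone the differences at 95 to 100 and at 120 to 125 Mb were 0.35 (exact p = 0.0845) and 0.24 (exact p = 0.0775), and with a minimum mean count of 50 the one at 95 to 100 Mb was 0.40 (exact p = 0.0513).

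The window of 110 to 115 Mb, which holds the epithelial gene Skint6, had the largest of these differences, 0.78 (exact p = 0.0035). T cell high clones lay at -0.06 to 0.67 (median 0.47) and T cell low clones at -0.94 to 0.09 (median -0.28), lowest in 6422c1 and 6499c3. It held 14 members, 1 of them inside Skint6. Without that peak, a choice made after the values were seen, the difference was 0.66 (exact p = 0.00641). Beyond 130 Mb the differences turned to between -0.21 and -0.02, and in none of these windows was the unadjusted p under 0.05.

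**Figure D5:**
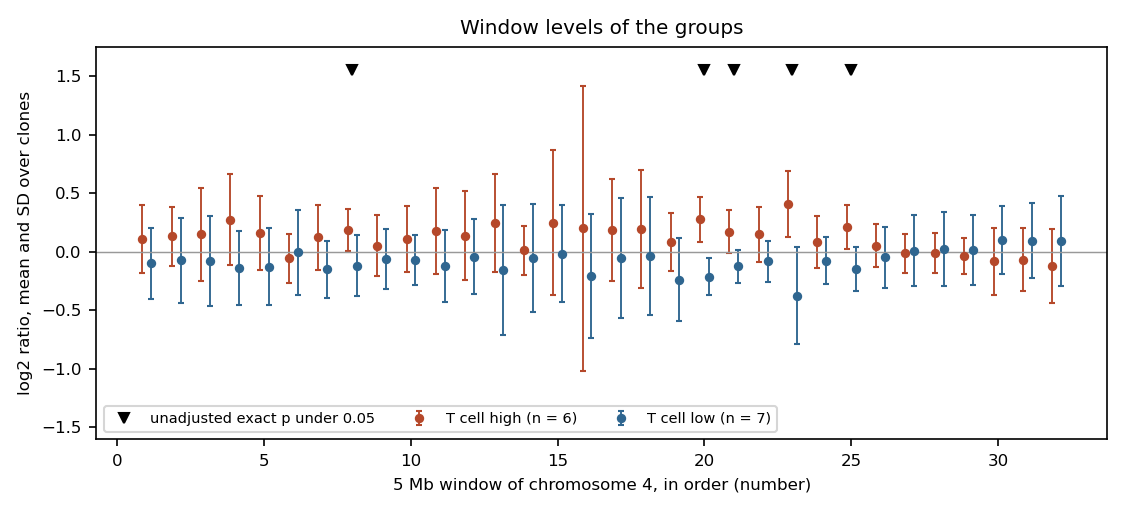
Mean and SD over clones of the median log2 ratio (y axis) in each of the 32 windows in order along the chromosome (x axis), for T cell high (n = 6, left point) and T cell low (n = 7, right point) clones. Triangles mark the 5 windows with an unadjusted exact p under 0.05, and the T cell high mean is the higher one in all 5.

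Tested peak by peak with edgeR's quasi-likelihood test over 59252 peaks, none of the 2055 members passed an adjusted p of 0.05, and 0% of all peaks passed in either direction. At an unadjusted p under 0.05, 150 members (7.30%) were higher and 27 (1.31%) lower in T cell high clones, against 3.86% higher and 2.96% lower, 6.83% in all, over all tested peaks. The tested peaks include ones under the mean count of 20 that every member reached, which 39747 peaks of the whole table met. The shares are thus not matched in depth. The median log2 fold change of the members was 0.13, against 0.01 over all tested peaks. It was 0.28 for the 451 members at 95 to 125 Mb and -0.17 for the 316 members at 140 Mb and beyond. The span of 95 to 125 Mb includes windows already marked above for a difference between the same groups, so its value is no separate result. With offsets for the window level of each clone, the median over members was -0.02 and the counts were 60 higher and 60 lower. The offsets were window medians of these same peaks, so a median near 0 and near-even counts were built in. What the shift without offsets came from was not tested. DESeq2 called 3 members higher and 0 lower at an adjusted p under 0.05, against 0.0591% higher and 0.0203% lower over all peaks.

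Of 114 listed genes of chromosome 4, 73 had a gene-end peak among the members. Of the rest, 37 had no gene-end peak and 4 had one under the count threshold. None of the 73 passed the adjusted test, 5 had an unadjusted p under 0.05, and their median log2 fold change was -0.02. By list, the median was 0.27 for 4 epithelial and matrix genes, 0.11 for 5 immune genes, 0.04 for 13 growth signalling genes, -0.02 for 15 cell cycle and apoptosis genes, -0.06 for 10 chromatin regulators, -0.09 for 9 transcription factors and -0.09 for 17 housekeeping genes.

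Among growth signalling genes, Mycl had 25 to 50.6 CPM in T cell high (median 41.3 CPM) and 16.4 to 43.9 CPM in T cell low clones (median 23.3 CPM). Its log2 fold change was 0.57 (SE 0.25, edgeR adjusted p = 0.711), and 0.23 with the window offsets. Jak1 had a log2 fold change of 0.34 (SE 0.19), and 0.03 with the offsets, and Pik3r3, a regulatory subunit of PI3 kinase, 0.20 (SE 0.25). For Jun it was 0.11 (SE 0.17), and -0.37 with the offsets. Of the transcription factors, Hivep3, a zinc finger protein, had a log2 fold change of 0.80 (SE 0.45), E2f2, a cell cycle regulator, -0.65 (SE 0.41) and Prdm16, a regulator of brown fat and stem cells, -0.78 (SE 0.53). Nfib was at -0.17 (SE 0.28), with its highest level in 6556c3.

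Of the chromatin regulators, Arid1a, a subunit of the SWI/SNF remodelling complex, had 13.7 to 26.9 CPM in T cell high (median 17.3 CPM) and 14.9 to 39.0 CPM in T cell low clones (median 23.1 CPM), a log2 fold change of -0.44 (SE 0.27). Phf13, a reader of histone methylation, was at -0.27 (SE 0.21) and Sfpq, a splicing factor, at 0.19 (SE 0.19). In the cell cycle and apoptosis list, Cdca8, a subunit of the chromosomal passenger complex, was at 0.42 (SE 0.26), Trp53inp1, a p53 target, at 0.32 (SE 0.21), Dffb, the nuclease of apoptotic DNA breakdown, at -0.25 (SE 0.22) and Ccne2 at -0.02 (SE 0.22). The housekeeping genes Cap1, Aurkaip1 and Pgd were at 0.38 (SE 0.20), -0.32 (SE 0.24) and -0.32 (SE 0.24), in the directions of the windows they lie in.

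Of the epithelial and matrix genes, Esrp1, the epithelial splicing regulator, had 1.85 to 39.9 CPM in T cell high (median 13.4 CPM) and 1.02 to 14 CPM in T cell low clones (median 2.68 CPM). The range was wide in both groups, with 2838c3 as low as the lower T cell low clones, and the log2 fold change was 1.56 (SE 0.63, edgeR adjusted p = 0.681). Plpp3, a lipid phosphatase, was at 0.55 (SE 0.25), and Col16a1, a collagen gene, at -0.11 (SE 0.47). Of the immune genes, Ccl27a, a chemokine made by epithelium, was at 0.74 (SE 0.32) and Tlr4 at 0.45 (SE 0.25). Tnfrsf8, the receptor CD30, was at -0.87 (SE 0.36), highest in 6419c1 (28.6 CPM), 6694c2 (26.0 CPM) and 6419c5 (24.7 CPM).

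The 6 members with the smallest edgeR p were all higher in T cell high clones. They were picked by this same comparison, so their direction and the gaps between groups are no separate support. The peak inside Skint6 (113262629 to 113263262) had 8.13 to 33.5 CPM in T cell high and 0.696 to 4.14 CPM in T cell low clones, and that inside Tek (94745782 to 94747003) 12.7 to 26.9 CPM and 1.71 to 8.65 CPM in the same order of groups. A peak near Cmpk1, a pyrimidine nucleotide kinase gene (114959533 to 114960110, 503 bp from a gene end), had 8.69 to 15.5 CPM in T cell high (median 11.8 CPM) and 3.13 to 7.37 CPM in T cell low clones (median 3.73 CPM). At these 3 peaks the groups did not overlap. In all, 4 of 2055 members (0.195%) had all T cell high clones above all T cell low clones, against 0.0675% of tested peaks, which include peaks of lower count than any member. The Cmpk1 peak had a log2 fold change of 1.36 (SE 0.35, edgeR adjusted p = 0.494), and 0.45 with the window offsets. The other 3 lay 965 bp from an end of Esrp1, 46851 bp from one of Bpnt2 and 67605 bp from one of the cholesterol transporter gene Abca1. Their log2 fold changes were 2.36 (SE 0.58), 1.97 (SE 0.49) and 1.08 (SE 0.28), and the groups overlapped at each. Mean counts were 20.8 at Bpnt2, 22.1 at Esrp1, 24.2 at Cmpk1, 25.6 at Skint6, 34.8 at Tek and 89.8 at Abca1. At all but Abca1 the T cell low clones averaged 2.48 to 5.89 CPM. Those peaks thus reached the minimum mean count of 20 only through the T cell high clones. DESeq2 called the peaks at Skint6, Tek and Bpnt2. With the T cell high clone 2838c3 left out, edgeR called 3 members, at Skint6, Tek and Esrp1.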

How the data were processed

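ATAC-seq libraries of 13 clones were used, 6 T cell high and 7 T cell low, grouped by the labelled phenotype. The authors deposited raw read counts per merged peak (67945 peaks), made with featureCounts 1.5.3 per the file headers, on mm10 per the submitters' processing notes, which also name DESeq2. No aligner or peak caller is given in the sources used here. The members and gene lists were chosen with earlier results of these data known, and some listed genes are not reported here.

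Counts were scaled by TMM in edgeR 4.0.16 (R 4.3.3, limma 3.58.1) and turned into log2 CPM with a prior count of 2, less the median of the other 12 libraries. Windows of 5 Mb with at least 10 members were compared by exact two-sided permutation tests over 1716 splits. Peaks were tested with edgeR's quasi-likelihood test and Benjamini-Hochberg adjustment over 59252 peaks that passed filterByExpr, all 2055 members among them. DESeq2 1.42.0, limma-voom, offsets for regional level, and clones of 1 parent averaged or summed were alternatives. Stretches (penalty 3, at least 10 peaks) were cut after the data were seen. Named genes were, per list, the 3 with the smallest edgeR p and the 1 with the highest mean CPM, with the listed genes of windows the text turns on and the 6 members of smallest p. Scripts were tested on simulated data. Total counts of 968296 to 7369228 limit the precision of single peaks. Python 3.11.15, numpy 2.4.6, pandas 2.3.3, scipy 1.17.1 and matplotlib 3.10.9 were used.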

Additional observations from a re-analysis of the deposited data

Results flagged for a closer look

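Of 128 sets of values, each 1 quantity in the clones of 1 group, 7 held a clone set apart from the rest by a gap that took up most of the range, and chance alone gives about 1 such set in 20. In T cell high clones, 6421c2 stood apart in the windows of 55 to 60 Mb (0.87) and 70 to 75 Mb (1.45), both inside its raised stretch. The clone 6620c1 stood apart at E2f2 with 2.59 CPM, and 2838c3 at Tnfrsf8 with 15.9 CPM. In T cell low clones, 6422c1 stood apart in the level of the whole chromosome (-0.44), and 6556c3 in the window of 85 to 90 Mb (0.99) and at Nfib (184.8 CPM).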

How the results depend on the processing

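The group differences in the whole-chromosome level and in the later minus the earlier part kept their direction and did not pass the test under all 25 alternatives of each. With any 1 library left out, the first lay between 0.06 and 0.15 and the second between -0.17 and -0.05. The number of windows that passed with adjustment over the 32 windows of chromosome 4 was 0, and became 1 with total counts, with centring on the autosomal median and with 10 Mb windows, 3 after thinning to the smallest total, and 4 with no minimum count, with peaks away from gene ends and with centring within classes of peaks. With 1 library left out it was 0 to 3. Raised windows numbered 47, against 25 with gene-end peaks, 24 in 10 Mb windows, 85 in 2 Mb windows and 29 in windows of 30 or more peaks. Lowered windows numbered 38, against 15 in 10 Mb windows, 59 in 2 Mb windows, 66 past 0.3, 22 past 0.5 and 22 in windows of 30 or more peaks. Members called higher numbered 0 with edgeR, 3 with DESeq2 and 0 to 3 with 1 library left out (3 without 2838c3). With offsets, 16 of 73 listed genes turned sign. Among the genes named by rule, fold changes that turned sign were Nfib (0.034 with limma-voom, 0.089 without T cell low replicate 6, 6556c3), Jun (-0.37 with offsets), Col16a1 (0.063 with clones of 1 parent summed, 0.068 and 0.017 without T cell high replicates 1 and 3, and 0.23 and 0.048 without T cell low replicates 2 and 3) and Ccne2, near 0 throughout (0.030, 0.033, 0.074 and 0.0032 without T cell high replicates 1, 3, 5 and 6, and 0.024 and 0.073 without T cell low replicates 6 and 7). Leaving out 1 library gave -0.19 to 0.07 at Ccne2, -0.41 to 0.09 at Nfib and -0.54 to 0.23 at Col16a1. Except where the alternative itself changes the number of windows or samples, the cause was not tested. Centring within classes, thinning, the 30-peak minimum and the stretch penalty were chosen after seeing the data. No paired analysis was possible because the replicate numbers only name clones in accession order.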
